A study of Mus musculus with 9 samples.

Results

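The miR-25, miR-32 and miR-92 family is a group of small regulatory RNAs that begin with the same seed, the short stretch near the 5′ end that pairs with target messages. The members were chosen by name and sequence: mmu-miR-25-3p, mmu-miR-32-5p, mmu-miR-92a-3p and mmu-miR-92b-3p share the seed, and mmu-miR-32-3p was added as the other arm of the miR-32 hairpin, 5 of 1915 mature names in all. The prefix mmu, for mouse, is left out from here on. The family was singled out because miR-32-5p had been among the miRNAs with the smallest p for diet in these same libraries. Its own diet difference and the ratios built on it are therefore given as descriptions with no test.

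Small RNA was sequenced from washed milk fat taken on lactation day 10 from 9 primiparous ICR (CD1) mouse dams, an outbred stock with no engineered allele named in the labels. From 4 weeks of age, through 4 weeks before mating, pregnancy and lactation, the 5 control dams ate a diet with 10% of energy from fat (3.85 kcal per g) and the 4 high-fat dams one with 60% (5.24 kcal per g), both with 7% of energy from sucrose. Each library came from 1 dam, and dams lived in pairs within a diet before mating, so some may have shared a cage. No cells were sorted: milk fat carries RNA of the secretory epithelium, and washing was meant to remove loose cells.

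A miRNA guides the silencing complex to messages that hold a match to its seed, so family members can reach overlapping targets while being made from separate genes. Bcl2l11, which encodes the cell-death protein Bim, is the best known shared target of this family. miR-92a comes from the mir-17/92 cluster, known for promoting growth of lymphoid tumours, and from its relative on the X chromosome. miR-25 lies beside miR-93 and miR-106b in the DNA-replication gene Mcm7, and miR-32 lies in Tmem245, a gene for a membrane protein.

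The mature sequences are shown because they define the family and its limits; capitals mark bases 2 to 8, the seed, and all are from RefSeq on build GRCm38.p6, where all 5 members matched.
miR-25-3p: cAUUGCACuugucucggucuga
miR-92a-3p: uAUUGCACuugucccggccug
miR-92b-3p: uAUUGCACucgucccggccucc
miR-32-5p: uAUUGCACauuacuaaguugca
miR-32-3p: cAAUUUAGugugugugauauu

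The 4 seed members read alike from base 2 to base 8 and part beyond it. miR-92a-3p and miR-92b-3p are identical at 19 of 21 positions, and miR-25-3p and miR-92a-3p at 18 of 21. miR-32-5p is the odd sequence: after base 8 it is identical to miR-92a-3p at 3 of 13 positions and to miR-25-3p at 6 of 14. Its GC content is 31.8%, against 50.0% for miR-25-3p, 57.1% for miR-92a-3p and 63.6% for miR-92b-3p. Of the 1679 mature names in the RefSeq table, 6 hold this seed, and the other 2 are miR-363-3p, with 5 reads over 9 libraries, and miR-367-3p, with 0 reads. At 0 reads, up to 3 counts remain possible in each library, which in the shallowest is 3.58 CPM (reads scaled to the size of the library).

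The hairpin of mir-32 is shown because its arms are compared later. Capitals mark miR-32-5p and then miR-32-3p.
mir-32 hairpin: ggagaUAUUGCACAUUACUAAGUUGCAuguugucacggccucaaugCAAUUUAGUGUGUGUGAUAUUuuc

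The genes of the family are scattered over 5 chromosomes. On GRCm38, mir-32 lies at chr4:56895229-56895298 on the minus strand, in an intron of Tmem245 and on its strand. mir-25 lies at chr5:138165321-138165404 on the minus strand within Mcm7, where GENCODE M21 has 3 transcripts, of which 2 are protein-coding and span it as intron and 1 is a retained intron that holds it in an exon. mir-92a-1 lies at chr14:115044427-115044506 on the plus strand in an exon of the noncoding host gene Mir17hg. mir-92a-2 lies at chrX:52741838-52741928 and mir-92b at chr3:89227116-89227198, both on the minus strand and outside annotated genes other than miRNA genes.

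The libraries held 837817 to 3897109 reads after 1 count was kept per mature name. The 10 listed miRNAs of the secretory epithelium were all detected and made up 47.7% to 53.0% of control and 50.0% to 53.4% of high-fat reads. The largest parts of this share were miR-146b-5p, miR-148a-3p and miR-30a-5p, with control means of 208312, 129063 and 68780 CPM. The listed names of the miR-200 family were lower, with the highest control mean, 34523 CPM, for miR-200b-3p. The 7 leukocyte miRNAs made up 0.0654% to 0.106% of each control library, 1.23% and 0.353% of high-fat libraries 1 and 3, and 0.0314% and 0.0605% of high-fat libraries 2 and 4. The 5 erythrocyte miRNAs made up 0.00334% to 0.0206% of control and 0.00270% to 0.0796% of high-fat reads, with the highest value in high-fat library 3. The 5 stromal miRNAs made up 1.04% to 1.92% of control and 1.17% to 2.57% of high-fat reads. This share was set by miR-143-3p, with 8305 to 31292 reads in control and 24235 to 48074 in high-fat libraries. The other stromal names were far lower: miR-145a-5p reached at most 944 and 1123 reads, miR-199a-3p 82 and 575, miR-199a-5p 9 and 20, and miR-214-3p 1 and 3. The 2 endothelial miRNAs reached at most 0.00291% and the 3 striated muscle miRNAs at most 0.00910%, with miR-206-3p at 0 in all libraries. In bulk RNA, fewer cells of a type and less RNA per cell cannot be told apart.

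miR-92a-3p was the most abundant member. Its level was 3448, 4011, 5764, 5008 and 7813 CPM in the controls, in order of replicate number, and 5796, 6364, 3526 and 4523 CPM in the high-fat libraries. The ranges of the diets lay over each other, with control library 5 highest and control library 1 lowest. The means were 5209 ± 1708 CPM (SD, n = 5) and 5052 ± 1276 CPM (SD, n = 4), and miR-92a-3p ranked 31 by mean share among 828 detected names. By limma-voom its log2 fold change, high-fat over control, was -0.0047 ± 0.25 (SE), with a 95% interval of -0.56 to 0.55 and an adjusted p of 0.993 over all tested names. The sign of this value turned with the scaling and with the libraries used, and it is read here as no direction.

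miR-25-3p was the second member by level. It measured 1695, 1449.8, 2716, 2071 and 2814 CPM in the controls and 2329, 1466, 1317 and 1992 CPM in the high-fat libraries. High-fat library 3 was the lowest of all 9, and the other 3 high-fat libraries lay within the control range. The means were 2149 ± 605 CPM (SD, n = 5) and 1776 ± 469 CPM (SD, n = 4). The limma-voom log2 fold change was -0.27 ± 0.24 (SE), with a 95% interval of -0.81 to 0.27 and an adjusted p of 0.697.

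miR-92b-3p was far rarer than miR-92a-3p despite the near-identical sequence, with a log2 ratio of miR-92a-3p to miR-92b-3p of 6.95 ± 0.94 (SD, n = 5) in control milk. Its levels were 66.8, 33.5, 50.4, 37.7 and 23.8 CPM in the controls and 45.7, 90.0, 23.8 and 38.0 CPM in the high-fat libraries, from 20 to 341 reads. How reads that fit both names were assigned is unknown here. High-fat library 2 stood highest and the rest of the high-fat values fell among the controls. The limma-voom log2 fold change was 0.15 ± 0.41 (SE), with a 95% interval of -0.76 to 1.06 and an adjusted p of 0.885. Without high-fat library 2 it was -0.35, so that library sets its sign.

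miR-32-5p, the member that drew attention to the family, measured 82.3, 98.1, 71.0, 134 and 91.5 CPM in control libraries 1 to 5. In high-fat libraries 1 to 4 it measured 150.2, 180.0, 138 and 239.9 CPM. All 4 high-fat values lay above all 5 control values, with means of 95.4 ± 23.9 CPM (SD, n = 5) and 177 ± 45.4 CPM (SD, n = 4). The fitted log2 fold change was 0.91 ± 0.23 (SE). These are the values that chose the family, and nothing is tested on them.

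The gap between the diets was narrow at its edge. The lowest high-fat value, 138 CPM in library 3 from 273 reads (95% Wilson interval 123 to 156), and the highest control value, 134 CPM in library 4 from 210 reads (117 to 153), had overlapping counting intervals. These intervals cover counting error only, as reads copied by PCR are not separate molecules. With upper-quartile scaling the order at this edge turned, with 129 CPM in the lowest high-fat and 133 CPM in the highest control library, and 3 of 4 high-fat libraries then lay above all controls.

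High-fat libraries 1 and 3, which held the most reads of leukocyte miRNAs, had miR-32-5p at 150.2 and 138 CPM, and high-fat libraries 2 and 4 had it at 180.0 and 239.9 CPM. Without libraries 1 and 3 the log2 fold change of miR-32-5p was 1.20. The part of leukocyte RNA in the miR-32-5p values was not tested.

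miR-32-3p, cut from the same hairpin, had nearly equal mean levels in both diets. It measured 31.1, 24.5, 16.3, 26.8 and 27.3 CPM in the controls and 17.0, 37.5, 18.2 and 23.9 CPM in the high-fat libraries, from 23 to 142 reads. The lowest value was in control library 3 and the highest in high-fat library 2, with 3 high-fat libraries inside the control range. The means were 25.2 ± 5.51 CPM (SD, n = 5) and 24.1 ± 9.40 CPM (SD, n = 4). The limma-voom log2 fold change was -0.0042 ± 0.33 (SE), with a 95% interval of -0.73 to 0.72 and an adjusted p of 0.993. Its sign changed with library choice, and reads were few.

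**Figure D1:**
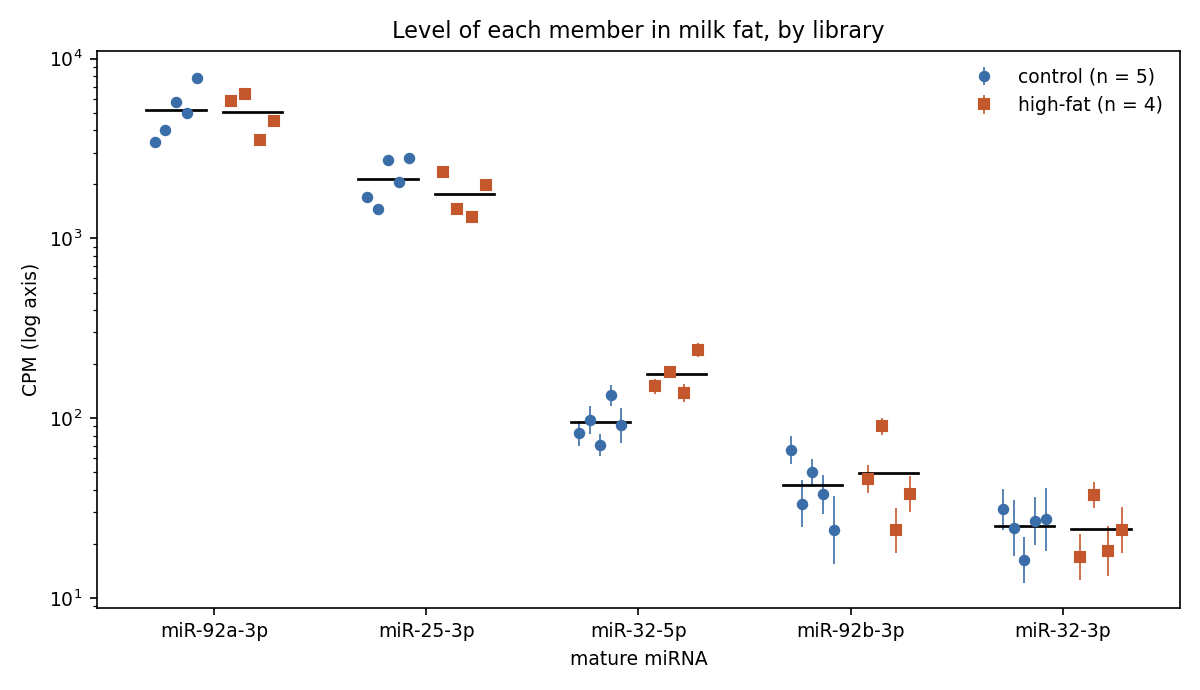
Level of the 5 members in CPM (log axis) in each of 5 control (circles) and 4 high-fat (squares) libraries, with bars for 95% Wilson counting intervals and black lines for the mean of a diet. The diets overlap for miR-92a-3p, miR-25-3p, miR-92b-3p and miR-32-3p, while the miR-32-5p points of high-fat milk, 138 to 239.9 CPM, lie just above those of control milk, 71.0 to 134 CPM.

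Across the whole table, limma-voom called 0 of 312 tested miRNAs (0%) at the adjusted threshold of 0.05. No test is read for miR-32-5p, which led to the choice of the family. limma-trend, run as an alternative, called none of the other members. By limma-voom none of these others reached an unadjusted p below 0.05, where 10.3% of all tested names did. Their smallest limma-voom p was 0.292, for miR-25-3p. As a description, 1 of 5 members, miR-32-5p, had every high-fat library above every control, as did 3.21% of tested names. Because miR-32-5p led to the choice of the family, nothing is read from that count. 0 members had every high-fat library below every control, as did 1.6% of tested names. All 5 members reached the minimum count in all 9 libraries, 2 of 5 had a log2 fold change above 0, against 50.6% of all tested names, and the median log2 fold change over all tested names was 0.0042.

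The order of the levels was stable between dams for most neighbours. miR-92a-3p exceeded miR-25-3p in 9 of 9 libraries, by 2.03 to 4.34 times in reads. miR-25-3p exceeded miR-32-5p in 9 of 9, by 8.14 to 38.2 times, and miR-32-5p exceeded miR-92b-3p in 9 of 9, by 1.23 to 6.31 times. miR-92b-3p and miR-32-3p, the lowest pair, changed places in 1 library. Ligation efficiency differs between small RNAs, so these levels compare reads and not molecules.

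Summed, the 4 seed members made up 0.749% ± 0.226 of control reads (SD, n = 5) and 0.709% ± 0.178 of high-fat reads (SD, n = 4). Nearly all of this pool was miR-92a-3p, with 69.1% ± 3.16 and 71.3% ± 5.11 of it, and miR-25-3p, with 28.9% ± 2.88 and 25.4% ± 5.04. miR-32-5p was a minor part, at 1.37% ± 0.494 of the pool in control and 2.58% ± 0.746 in high-fat milk. The miR-32-5p part was 0.826% to 1.85% in the controls and 1.81% to 3.53% in the high-fat libraries, so that 1 high-fat library, number 1, fell inside the control range.

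miR-32-5p was set beside its relatives with ratios inside each library, which do not depend on scaling. The log2 ratio of miR-32-5p to miR-25-3p was -4.36, -3.88, -5.25, -3.95 and -4.93 in control and -3.95, -3.02, -3.25 and -3.05 in high-fat libraries. Here 3 of 4 high-fat libraries lay above all controls, and high-fat library 1 lay beside control library 4. The log2 ratio to miR-92a-3p was -5.38, -5.35, -6.34, -5.22 and -6.41 in control and -5.27, -5.14, -4.67 and -4.24 in high-fat libraries, again with 3 of 4 above all controls. The mean differences between diets were 1.15 and 0.91 log2 units. The ratio to miR-92b-3p had a mean difference of 0.76, and 2 of 4 high-fat libraries lay above all controls.

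None of the ratios of miR-32-5p to a seed relative therefore separated the diets fully, although each had a higher mean in high-fat milk. The difference between miR-32-5p and its relatives was not tested, because miR-32-5p was picked for its value.

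Ratios among the relatives could be tested, since none of them led to the choice of the family. The log2 ratio of miR-25-3p to miR-92a-3p was -1.26 ± 0.21 in control milk (SD, n = 5) against -1.51 ± 0.42 in high-fat milk (SD, n = 4). The difference of -0.24 had a two-sided exact permutation p of 0.349, adjusted to 0.690 over 3 ratios, where the smallest possible p is 0.0159. It was -0.042 without high-fat library 2 and -0.39 without high-fat libraries 1 and 3. For miR-25-3p over miR-92b-3p the difference was -0.40 (exact permutation p = 0.460, adjusted p = 0.690). Without high-fat library 2 this difference was 0.025, so that library decides it. For miR-92a-3p over miR-92b-3p the difference was -0.15, with exact p and adjusted p both 0.873, and it turned to 0.19 without control library 5 and to 0.066 without high-fat library 2.

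**Figure D2:**
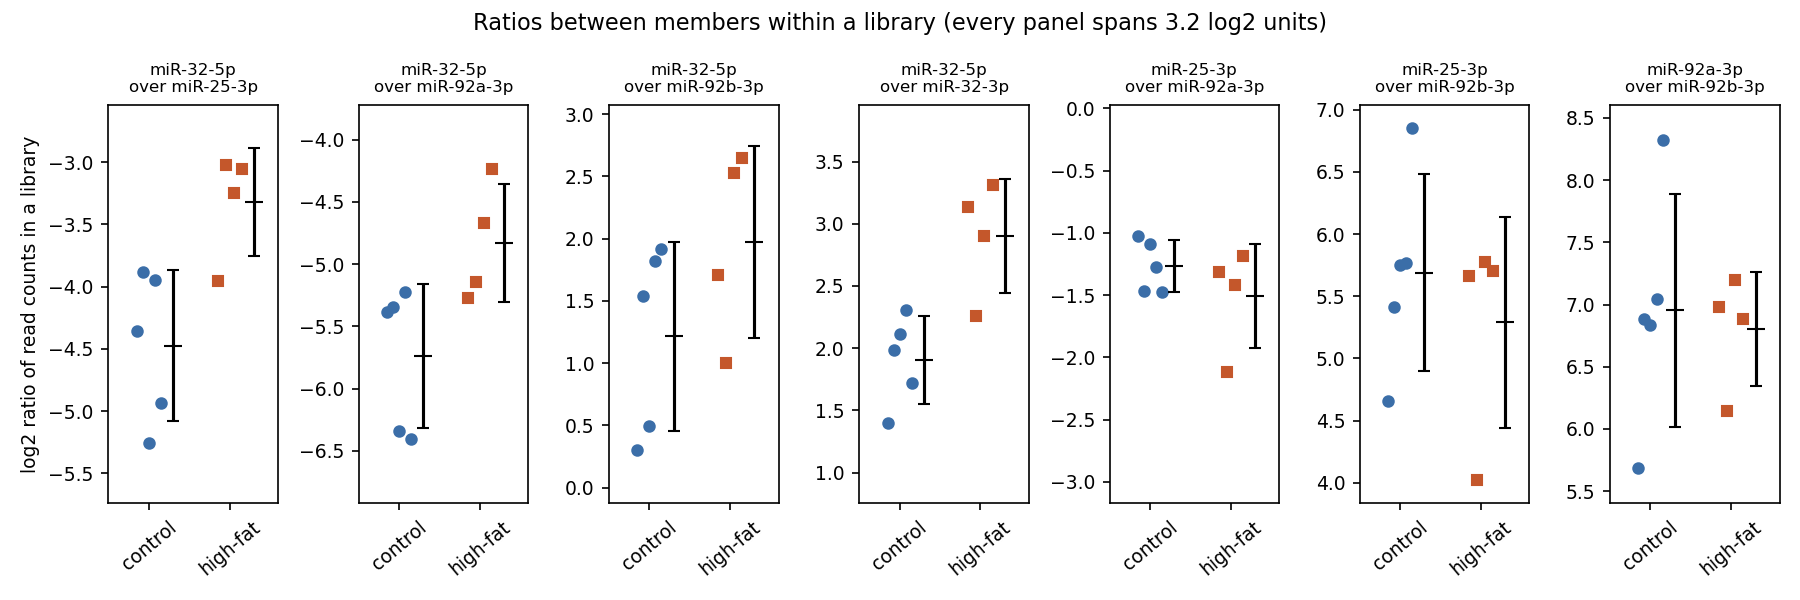
Log2 ratio of read counts between pairs of members in each library, with circles for 5 control and squares for 4 high-fat libraries, and bars for the mean ± SD of a diet; every panel spans the same range. The first 4 panels, with miR-32-5p on top, have higher means in high-fat milk by 0.76 to 1.15 log2 units with 2 or 3 of 4 libraries above all controls, and the last 3 panels, of the relatives, overlap.

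The arms of each hairpin were compared next, as one arm is usually kept and the other degraded. The hairpins of the relatives gave reads almost wholly from their 3p arm. miR-25-3p made up 99.5% to 99.9% of the reads of its hairpin in every library, and miR-92a-3p 99.6% to 99.9% of the summed reads of miR-92a-3p and miR-92a-1-5p. That second share is not one of a single hairpin, as miR-92a-3p is made from both mir-92a-1 and mir-92a-2 and miR-92a-1-5p from mir-92a-1. miR-25-5p had 2 to 15 reads a library, miR-92a-1-5p 10 to 44, miR-92b-5p 4 reads in high-fat library 4 and 0 elsewhere, and miR-92a-2-5p 0 in all 9. Of these 4 opposite arms only miR-92a-1-5p passed the count filter, with a limma-voom log2 fold change of -0.12 ± 0.48 (SE) and an adjusted p of 0.894.

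mir-32 was less one-sided. Its 5p arm, the one with the family seed, made up 78.9% ± 4.19 of its reads in control milk (SD, n = 5) against 88.0% ± 3.64 in high-fat milk (SD, n = 4). The log2 ratio of miR-32-5p to miR-32-3p was 1.40, 1.98, 2.11, 2.31 and 1.72 in control and 3.13, 2.26, 2.91 and 3.31 in high-fat libraries. High-fat library 2, with the most reads of miR-32-3p, fell inside the control range, and the other 3 lay above all controls. The difference of 1.00 ± 0.30 (SE) is a description, as it holds the miR-32-5p value that chose the family. Of 114 hairpins with both arms counted, limma called 0 (0%) at the adjusted threshold of 0.05, and 8 reached 0.05 before adjustment. The log2 ratio of miR-92a-1-5p to miR-92a-3p, whose reads can come from either hairpin, was -8.68 ± 0.92 in control (SD, n = 5) against -9.01 ± 0.31 in high-fat milk (SD, n = 4). The difference of -0.33 ± 0.46 (SE) had a limma adjusted p of 0.863. Dropping control library 3 gave -0.64, dropping control library 2 or 4 gave -0.12 or -0.10, and dropping high-fat library 3 gave -0.21.

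The neighbours of the family in its clusters were compared from lists chosen by gene position. All 4 listed miRNAs of the mir-106b/25 cluster other than miR-25 itself were tested, 2 had log2 fold changes above 0 and 2 below, none passed, and the median was -0.020. miR-93-5p, an abundant relative of miR-17, measured 2306 ± 314 CPM in control milk (SD, n = 5) against 2154 ± 339 CPM in high-fat milk (SD, n = 4), a level near that of miR-25-3p from the same gene. Of 8 listed miRNAs of the mir-17/92 cluster, 7 were tested, 3 had log2 fold changes above 0 and 4 below, none passed, and the median was -0.0088. The largest in size was 0.39 ± 0.24 (SE) for miR-18a-5p, a cluster member with its own seed, with a limma-voom adjusted p of 0.650.

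miR-92a-3p was far above the other products of its cluster. miR-20a-5p, a member with the miR-17 seed, measured 562 ± 109 CPM in control milk (SD, n = 5) against 466 ± 67.7 CPM in high-fat milk (SD, n = 4). miR-19b-3p, a member with the miR-19 seed, measured 555 ± 70.4 and 596 ± 226 CPM. In the cluster of mir-106a on the X chromosome, 5 of 5 listed names had reads but only miR-19b-3p, which is also made from mir-17/92, passed the count filter. Reads of miR-92a-3p cannot be assigned to mir-92a-1 or mir-92a-2, since the mature sequence is the same. The table's mir-92a-2 row held 86.8% to 92.9% of the mir-92a-1 row, and the higher row, mir-92a-1 in all 9 libraries, was used.

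**Figure D3:**
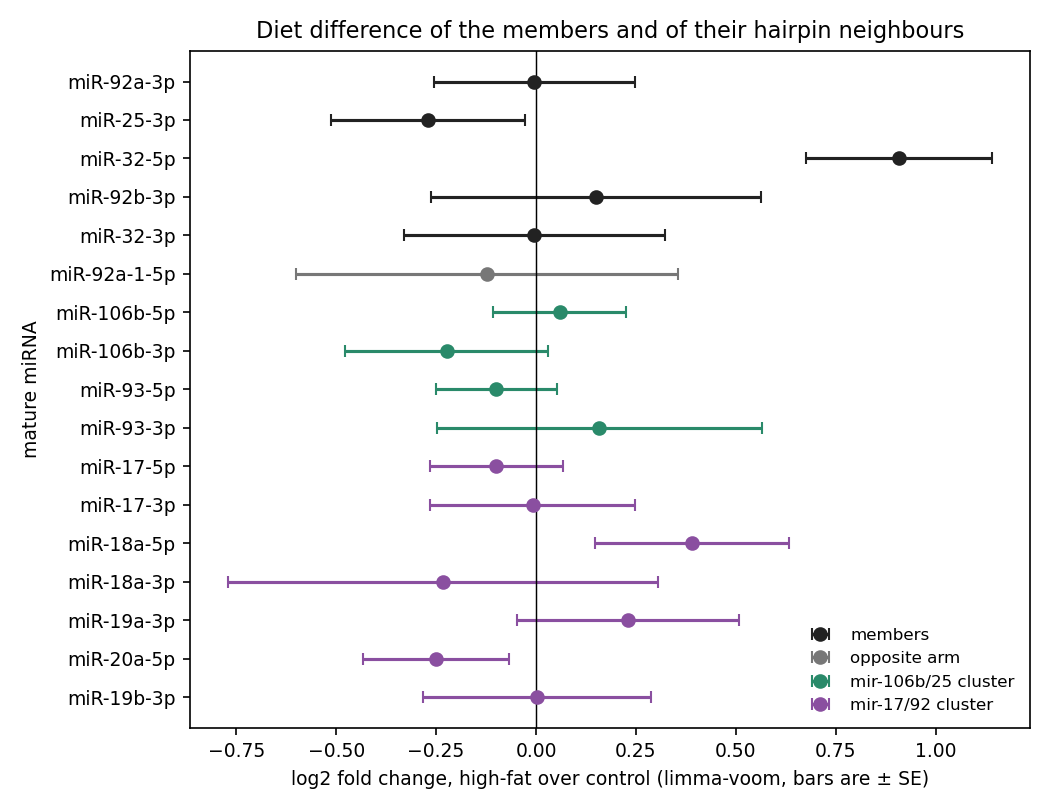
Log2 fold change of high-fat over control by limma-voom with its standard error for the 5 members, the 1 tested opposite arm and the tested miRNAs of 2 clusters. miR-32-5p stands at 0.91, while the other members lie between -0.27 and 0.15 and the cluster neighbours between -0.25 and 0.39.

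How closely members followed each other from dam to dam was measured by the SD, over the 9 libraries, of the log2 ratio between 2 miRNAs: a small SD means that the ratio was near constant from dam to dam. miR-25-3p and miR-92a-3p followed each other closely, with an SD of 0.32, against a median of 0.61 for miR-92a-3p and all other tested names. miR-25-3p ranked 9 of 311 for likeness to miR-92a-3p, and miR-92a-3p ranked 16 of 311 for likeness to miR-25-3p. The median and these ranks cover names of all levels, most of them rarer than this pair, whose counting error is small. Neighbours in a gene were spread over the ranks, which were not matched for level. Counting error widens the SD of rare names, so a late rank alone does not show that neighbours part. Those beyond the median SD were low in control milk: miR-93-3p at 14.3, miR-19a-3p at 56.7, miR-18a-5p at 42.6 and miR-18a-3p at 6.64 CPM. miR-17-3p, at 20.8 CPM, lay within it. For miR-25-3p, the names from the same gene stood at rank 37 (miR-106b-3p), 74 (miR-93-5p), 122 (miR-106b-5p) and 240 (miR-93-3p), the last of them beyond the median SD of 0.63. For miR-92a-3p, the 7 tested names of its cluster stood at rank 4 (miR-20a-5p), 44 (miR-17-5p), 75 (miR-19b-3p), 90 (miR-17-3p), 173 (miR-19a-3p), 213 (miR-18a-5p) and 226 (miR-18a-3p), the last 3 beyond the median SD. The 3 nearest names were let-7d-5p, miR-221-3p and miR-532-5p for miR-92a-3p, with SDs of 0.24 to 0.29, and miR-181c-3p, miR-222-3p and miR-221-3p for miR-25-3p, with SDs of 0.22 to 0.24.

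Likeness to miR-32-5p over all 9 libraries includes the diet difference that chose the family. On this measure miR-92a-3p ranked 132, miR-25-3p 179 and miR-92b-3p 190 of 311 for likeness to it, with SDs of 0.69 to 0.82 around a median of 0.72, and its own other arm ranked 97 with an SD of 0.65. With the mean of each diet taken off, a choice made after the data were seen, the SD was 0.54 for miR-25-3p, 0.54 for miR-92a-3p and 0.77 for miR-92b-3p, around a median of 0.57. Over all 9 libraries, with the diet means left in, the nearest name was miR-141-3p, of the epithelial miR-200 family, with an SD of 0.22. It was followed by miR-148b-5p at 0.34 and miR-181c-5p at 0.34. miR-141-3p and miR-181c-5p also had every high-fat library above every control, so this likeness holds the diet difference of both names and is no separate evidence of it. miR-92b-3p and miR-32-3p, the rarest members, had their own nearest names: let-7f-1-3p, miR-877-3p and let-7b-3p for miR-92b-3p, with SDs of 0.33 to 0.43, and miR-193b-3p, miR-146b-3p and miR-27b-3p for miR-32-3p, with SDs of 0.29 to 0.32.

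**Figure D4:**
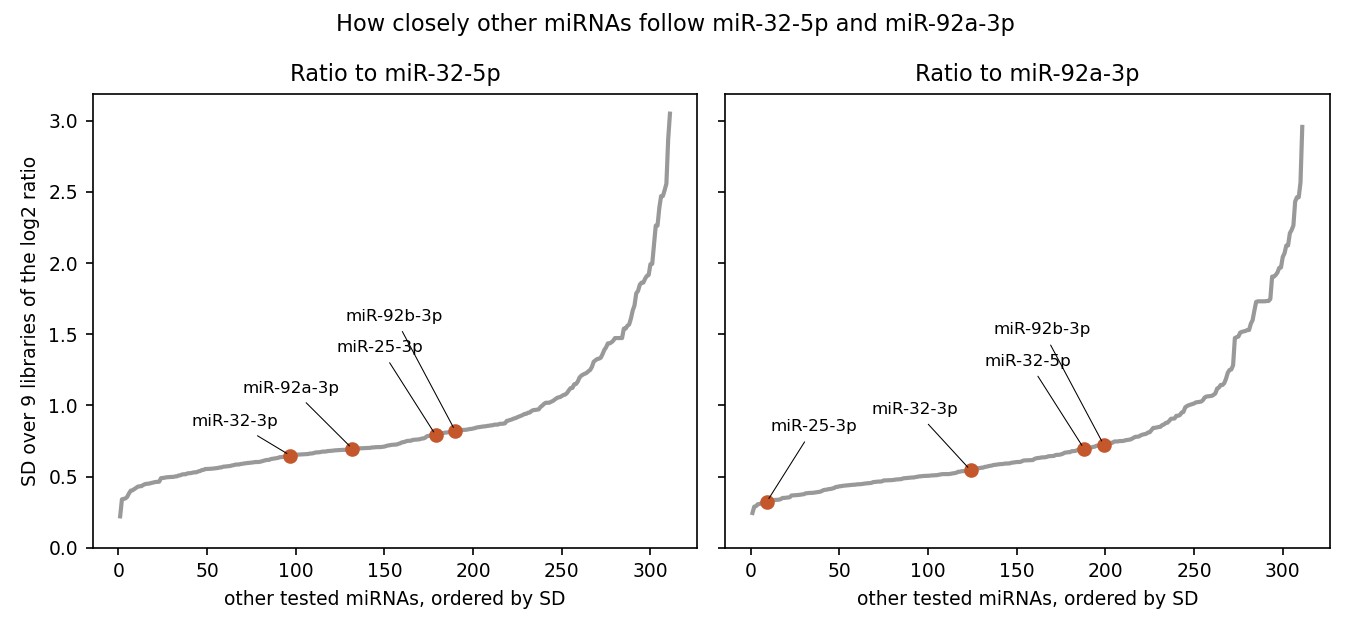
SD over 9 libraries of the log2 ratio of each of 311 other tested miRNAs to miR-32-5p (left) and to miR-92a-3p (right), ordered from most to least alike, with the other family members as points. For miR-92a-3p, miR-25-3p is at rank 9 and the other members are at ranks 124 (miR-32-3p), 188 (miR-32-5p) and 199 (miR-92b-3p). For miR-32-5p the members lie at ranks 97 to 190, and its SDs include the diet difference that chose the family.

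The spread between dams of one diet, as an SD of log2 CPM, was 0.40 for miR-25-3p and 0.43 for miR-92a-3p, against medians of 0.25 and 0.29 for the 20 tested names nearest to each in level. For miR-32-5p it was 0.35, against 0.31 for names of like level, and for miR-92b-3p 0.67 against 0.42. miR-32-3p had 0.43, against 0.57. The abundant miR-25-3p and miR-92a-3p, where counting error is small, thus varied more between dams than the median miRNA of their level.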

How the data were processed

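Read counts of known miRNAs were deposited by the authors with a row for each precursor and mature name together and a column for each dam, raw and in whole numbers, with comma separators in 833 cells that were removed. The submitters' processing notes name cutadapt 1.9.1 and build GRCm38. For the aligner, the counter and the miRBase release, the sources used here give no name. The highest row per mature name and library was kept. Because of the commas the columns were recorded under another unit than plain counts, so limma-voom (limma 3.58.1, R 4.3.3) was the test, with diet as the only term, trimmed-mean scaling (30% of log ratios and 5% of levels trimmed at each end) and Benjamini-Hochberg adjustment over the 312 names with at least 5.25 CPM (10 counts in a library of median size) in 4 or more libraries and 15 counts in total. Arm ratios used a pseudocount of 0.5 and limma over 114 hairpins with a mean of 10 counts on each arm. Ratios between members were tested by exact permutation (scipy 1.17.1). The fits were tested on simulated data with changes larger than any diet difference given here for a member. That does not show how often differences of the size seen here would be called. Libraries of a diet differed pairwise by a chi-square of at least 50.2 for each degree of freedom, so none was the same library sequenced again. Separate preparations from the same dam could also differ by more than counting error, and this value cannot exclude them. The members, lists and rule for named miRNAs (members, opposite arms, seed sharers, cluster neighbours and the 3 nearest names of each member) were chosen with earlier results of these data known.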

Additional observations from a re-analysis of the deposited data

Results flagged for a closer look

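High-fat library 2 had a log2 ratio of miR-25-3p to miR-92b-3p of 4.02, far from the other 3 high-fat libraries, of which the nearest was at 5.66. It came from the highest miR-92b-3p level of all libraries, 90.0 CPM, beside a miR-25-3p level of 1466 CPM near the low end. In all, 26 groups of values were searched for a library far from the rest of its diet and 1 was found, where 1 in 20, or 1.3, is due by chance.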

How the results depend on the processing

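None of the members other than miR-32-5p, for which no test is read, was called in any of 20 alternatives. Among these were 3 scalings, no count filter, summed or averaged rows, library weights, limma-trend and leaving out libraries. The log2 fold change of miR-32-5p kept its sign in all 20, from 0.74 to 1.20, and that of miR-25-3p in all 20, from -0.41 to -0.15. The alternatives reuse the libraries in which miR-32-5p was picked for its value, so its stable sign is no separate evidence. The sign of miR-92a-3p turned with upper-quartile factors (0.0060), no filter (0.0056), library weights (0.091), the replicate block (0.14) and without high-fat libraries 1 and 3 (0.15), and ranged from -0.22 to 0.14 with 1 library left out. That of miR-32-3p turned with library weights (0.019) and without high-fat libraries 1 and 3 (0.40), and ranged from -0.39 to 0.16 with 1 library left out. That of miR-92b-3p turned with the replicate block (-0.022) and without high-fat library 2 (-0.35), and ranged from -0.35 to 0.38 with 1 library left out. Over all names, calls numbered 4 with no filter, 2 with library weights, 2 with limma-trend and 3 with the replicate block. With 1 library left out they numbered 0 to 4, the 4 without control library 5. Replicate number 5 was used in control only, so the block fits control library 5 by itself and in effect also leaves it out of the diet difference. The arm-ratio difference of mir-32 was 0.95 in both settings. The cause of the calls was not tested. With no filter on arm counts, 1 of 235 arm ratios was called, mir-23b. The difference of mir-32 in arm ratio ranged from 0.86 to 1.21, and that of miR-92a-1-5p over miR-92a-3p from -0.64 to -0.10. For the relatives' ratios, leaving out 1 library gave differences from -0.35 to -0.042 for miR-25-3p over miR-92a-3p, from -0.66 to 0.025 for miR-25-3p over miR-92b-3p and from -0.47 to 0.19 for miR-92a-3p over miR-92b-3p. The replicate numbers only name dams: the deviations of same-numbered libraries correlated at 0.062, -0.076, 0.20 and -0.16, so the block is no pairing. Depth limits the precision of miR-32-3p and miR-92b-3p, with as few as 23 and 20 reads in a library, and of the relatives' opposite arms, with 0 to 44.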

Other observations

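Likeness was also measured within diets, after the mean of each diet was taken off, a choice made after the data were seen. miR-141-3p was then no longer among the 3 names nearest to miR-32-5p, which were miR-3970, let-7j and miR-7a-5p with SDs of 0.21 to 0.22. miR-32-3p moved from rank 97 to rank 64 of 311, with an SD of 0.40, while miR-92a-3p, miR-25-3p and miR-92b-3p stood at ranks 140, 141 and 224. miR-25-3p and miR-92a-3p stayed close, at ranks 14 and 6 for each other and an SD of 0.32. These are descriptions over 9 libraries, and all names in a library share its depth and scaling.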
